A study of Mus musculus with 12 samples.

Results

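Photoreceptor fate transcription factors are the DNA-binding proteins that commit retinal precursors to the rod or cone fate and hold adult photoreceptors in it. The 9 genes described here (Crx, Nrl, Nr2e3, Otx2, Rorb, Rxrg, Thrb, Neurod1 and Prdm1) were chosen by name and matched to the Ensembl identifiers of the count table. All 9 were found among its 17579 genes. The table held 12 messenger RNA libraries from a study of the R6/1 mouse, a model of Huntington's disease, in 4 groups of 3 libraries: R6/1 retina, wt retina, R6/1 striatum and wt striatum. R6/1 mice carry a transgene, driven by the human promoter, of huntingtin exon 1 whose CAG repeat is expanded. The wt mice were littermates, and all were untreated males on a C57Bl/6 background (the C57BL/6J substrain in the study's methods) aged 13 to 15 weeks. RNA of 3 to 4 mice was pooled for each library, and the replicate error is that between such pools. The human transgene is not a row of the table used here, so the genotype labels were not checked by it.

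OTX2 starts the photoreceptor programme in precursors that have left the cell cycle, where it activates Crx, and PRDM1 steers these cells away from the bipolar fate. RORB and OTX2 act upstream of NRL, the leucine zipper factor that sets rods apart from cones, and NRL activates Nr2e3, a nuclear receptor that represses cone genes in rods and works with NRL and CRX on rod genes. RXRG and the thyroid hormone receptor encoded by Thrb act in cones, where they govern the choice of opsin, and NEUROD1 is needed for the survival of photoreceptors. The striatum holds no photoreceptors, and its main neurons, the medium spiny neurons, use Rxrg for their own differentiation.

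In the GRCm38 annotation of GENCODE, 7 of the genes lie on the minus strand, among them the homeobox and rod factors: Otx2 (ENSMUSG00000021848) on chromosome 14 from 48657677 to 48673819, Crx (ENSMUSG00000041578) on chromosome 7 from 15865947 to 15879968, Nrl (ENSMUSG00000040632) on chromosome 14 from 55518978 to 55524981 and Nr2e3 (ENSMUSG00000032292) on chromosome 9 from 59942771 to 59960659. Also on that strand are Rorb (ENSMUSG00000036192) on chromosome 19 from 18930605 to 19111196, Neurod1 (ENSMUSG00000034701) on chromosome 2 from 79452521 to 79456751 and Prdm1 (ENSMUSG00000038151) on chromosome 10 from 44437177 to 44528501. The factors of cones, Rxrg (ENSMUSG00000015843) on chromosome 1 from 167598384 to 167639623 and Thrb (ENSMUSG00000021779) on chromosome 14 from 17660261 to 18038090, are on the plus strand. Otx2, Nrl and Thrb share a chromosome but are not neighbours. Counts were summed over all exons and transcripts of each gene.

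The promoters of the 3 genes with the largest decreases in R6/1 retina, Crx, Nrl and Nr2e3, are printed 5′ to 3′ from RefSeq (GRCm38.p6), from 250 bases before to 50 bases after the annotated start. They lie at chr7:15879906-15880205, chr14:55524203-55524502 and chr9:59950030-59950329, all on the minus strand, and are shown because members of the group are known to act on these genes. Capitals mark the CRX/OTX site TAATCC and the E-box CANNTG, to which NEUROD1 and its relatives bind, each searched on both strands.
Crx: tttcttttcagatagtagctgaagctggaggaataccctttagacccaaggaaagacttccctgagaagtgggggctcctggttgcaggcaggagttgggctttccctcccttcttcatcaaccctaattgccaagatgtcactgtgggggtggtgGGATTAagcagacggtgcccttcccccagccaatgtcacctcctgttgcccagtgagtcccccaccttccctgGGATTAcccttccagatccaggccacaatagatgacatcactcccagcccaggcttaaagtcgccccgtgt
Nrl: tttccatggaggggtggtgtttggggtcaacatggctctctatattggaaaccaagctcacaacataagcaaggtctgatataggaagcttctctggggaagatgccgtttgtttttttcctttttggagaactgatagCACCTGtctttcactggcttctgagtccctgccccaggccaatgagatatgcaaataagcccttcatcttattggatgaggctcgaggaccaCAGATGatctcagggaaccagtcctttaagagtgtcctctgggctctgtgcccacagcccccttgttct
Nr2e3: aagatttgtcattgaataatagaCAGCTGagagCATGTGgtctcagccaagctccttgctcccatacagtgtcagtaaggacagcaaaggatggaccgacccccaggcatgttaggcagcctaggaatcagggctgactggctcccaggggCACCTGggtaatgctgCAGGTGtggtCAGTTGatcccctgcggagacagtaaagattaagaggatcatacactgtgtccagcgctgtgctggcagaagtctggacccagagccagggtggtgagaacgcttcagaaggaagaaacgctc
The Crx promoter held 2 matches to TAATCC, both read as GGATTA on the printed strand and starting 94 and 21 bases before the annotated start, and no E-box. Of the other factors, Thrb and Otx2 each had TAATCC at 1 of their annotated starts. The Nrl promoter held 2 E-boxes and the Nr2e3 promoter 5, and neither held TAATCC. Among 32851 RefSeq mouse promoters of this length, 7.06% held TAATCC and 72.3% held CANNTG, so that an E-box is common. None of the 3 held TGCTGA, a half-site of NRL (19.5% of all promoters), or AGGTCA, the half-site of nuclear receptors (16.3%). The RefSeq starts of Nrl and Nr2e3, and by a few bases that of Crx, lie within the longer gene spans of GENCODE. These matches describe the letters in the windows and were not tested for binding.

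The libraries held 14070445 to 22432431 estimated counts (median 17585751), and no pair of libraries was identical. Within each tissue a gene was listed either at 0 in all 6 libraries or with at least 11 counts in total, so a 0 in all libraries of a tissue can stand for a low count that was removed. Levels are given as CPM (reads of a gene relative to the library's scaled total) after TMM scaling, and changes as log2 fold changes with their SE (standard error) from the quasi-likelihood test of edgeR, called at a Benjamini-Hochberg adjusted p below 0.05 over all genes tested. In bulk tissue, fewer cells of a type and less RNA per cell cannot be told apart. One R6/1 retina library, replicate 3, stood apart in lens genes, with a summed level of 719.6 CPM against 3.4 to 66.9 CPM in the other 5 retina libraries, and the 6 calls in retina given next were also made without it. Both striatal libraries numbered 2 stood apart in thalamic genes, with 280.1 CPM in R6/1 and 189.8 CPM in wt, against 76.7 to 86.0 CPM in the other 4.

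Most of these factors were retinal genes. Per kilobase of merged exon, Crx led in R6/1 retina (256 ± 24.8 CPM per kb, SD, n = 3), followed by Neurod1 (193 ± 5.58). Nrl (91.6 ± 14.1), Nr2e3 (84.1 ± 8.53) and Otx2 (79.7 ± 1.15) came next, with overlapping ranges, and Rorb (31.0 ± 3.63), Thrb (14.7 ± 1.73), Prdm1 (5.13 ± 0.0594) and Rxrg (1.75 ± 0.293) closed the order. In wt retina Crx (397 ± 25.4 CPM per kb) was also first, but Nrl (211 ± 16.2), Neurod1 (206 ± 15.7) and Nr2e3 (174 ± 26.2) now followed it with overlapping ranges. Below them stood Otx2 (62.7 ± 0.437), Rorb (39.8 ± 1.33), Thrb (16.8 ± 1.86), Prdm1 (3.93 ± 0.197) and Rxrg (2.33 ± 0.252). No other neighbours in either order overlapped. The order in the middle depends on the length used: with the longest transcript, Otx2 (129.8 CPM per kb) passed Nr2e3 (106) and Nrl (105) in R6/1 retina, and Nr2e3 (219) passed Neurod1 (206) in wt retina.

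**Figure D1:**
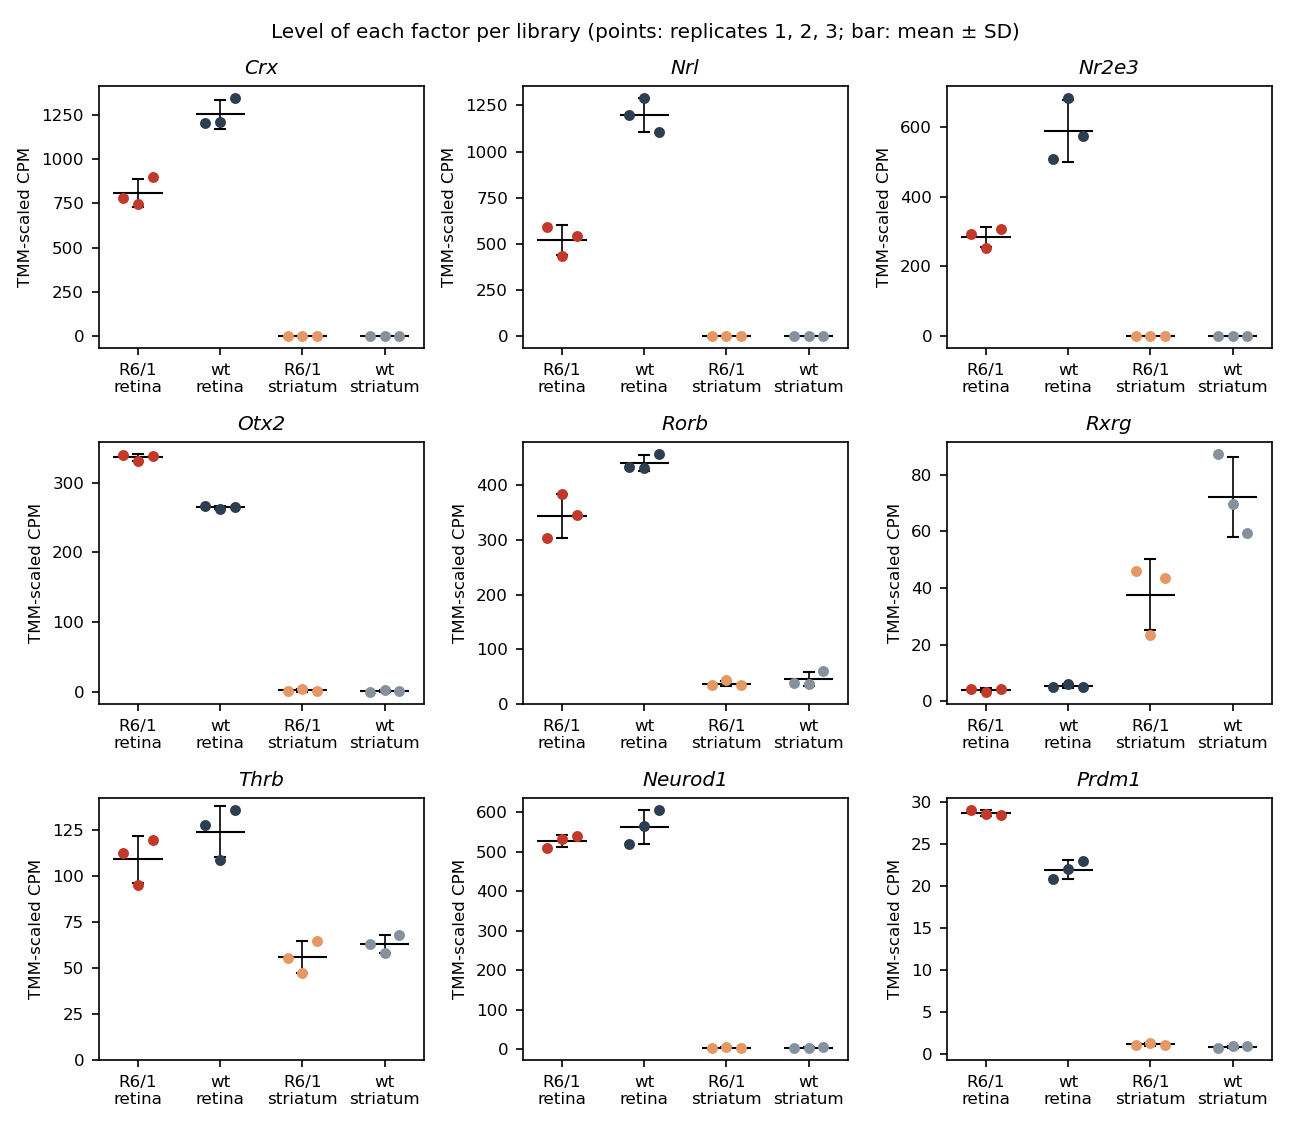
Level of each of the 9 factors in every library, in TMM-scaled CPM on a linear axis of its own per factor, with R6/1 left of wt in retina and in striatum. Points are pools of mice, horizontal lines are means of 3 and whiskers are ± SD. Crx, Nrl and Nr2e3 lie lower in all R6/1 retina pools than in any wt retina pool, Otx2 and Prdm1 lie higher, and Rxrg is the one factor with more CPM in striatum than in retina.

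The design set the change of the retina in R6/1 mice beside that of the striatum of the same mice, and the retina is given here. Of the 9 factors, 4 were called lower in R6/1 retina (Crx, Nrl, Nr2e3 and Rorb), 2 were called higher (Otx2 and Prdm1) and 3 passed the test in neither direction (Rxrg, Thrb and Neurod1). Over all 16582 genes tested in this comparison, 12.7% were called lower and 9.58% were called higher. Scaling by library totals turned this split to 1445 lower and 3886 higher, against 2103 and 1588 with TMM, while 3 factors remained lower (Crx, Nrl and Nr2e3) and Otx2 and Prdm1 higher. For 7 of the 9 factors the R6/1 and wt pools did not overlap, which held for 38.4% of all genes tested. The median log2 fold change of the 9 was -0.33, beside 0.01 for all genes.

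Crx encodes the cone-rod homeobox protein, the activator of most rod and cone genes. It had 778, 749 and 897 CPM in R6/1 retinas, against 1205, 1209 and 1346 CPM in wt retinas. All R6/1 pools lay below all wt pools, and the log2 fold change was -0.60 (SE 0.08, adjusted p = 2.58e-05), or 0.659 of the wt level. Nrl had 588.5, 432 and 543 CPM in R6/1 retinas, against 1199, 1289.9 and 1106 CPM in wt retinas. Its change of -1.17 on the log2 scale (SE 0.11, adjusted p = 1.12e-05) was the largest of the 9, and its lowest R6/1 pool was replicate 2. Nr2e3 had 292, 252 and 307 CPM in R6/1 retinas, against 508.5, 683 and 572 CPM in wt retinas. Its groups were also apart, and its log2 fold change was -1.02 (SE 0.11, adjusted p = 0.000245), or 0.493 of the wt level. Replicate 2 was again the lowest of the R6/1 pools.

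Otx2, the homeobox gene upstream of Crx that is also expressed in bipolar cells and retinal pigment epithelium, moved the other way. It had 340.0, 331 and 338 CPM in R6/1 retinas, against 266, 263 and 265 CPM in wt retinas. The pools of each genotype lay close together and the groups did not overlap. The log2 fold change was 0.38 (SE 0.06, adjusted p = 0.000107), or 1.30 times the wt level. When all 12 libraries shared 1 fit, the fold change was 0.34 with an SE of 0.32, and the call was lost (adjusted p = 0.533). That fit takes 1 spread per gene over both tissues. The SD of Otx2 was 1.45% and 0.70% of its mean in R6/1 and wt retina, against 102% and 94.5% in R6/1 and wt striatum. The part of the striatal spread in that SE was not tested. Of the 15 pigment epithelium genes tested, edgeR, DESeq2 and limma-voom called 0 (3 had an unadjusted p below 0.05 by edgeR), and their summed level was 137 to 164 CPM in R6/1 retinas and 134 to 165 CPM in wt retinas. Of 17 bipolar cell genes, 14 were called lower and none higher, with summed levels of 1616 to 1699 CPM in R6/1 retinas and 2280.4 to 2532 CPM in wt retinas. Their part in the result for Otx2 was not tested.

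Prdm1, a zinc finger repressor that is switched on in photoreceptor precursors and is also used by lymphocytes, was higher as well. It had 29.0, 28.5 and 28.4 CPM in R6/1 retinas, against 20.8, 21.9 and 23.0 CPM in wt retinas. Again the groups were apart, and the log2 fold change was 0.42 (SE 0.08, adjusted p = 0.0015), or 1.33 times the wt level. Of 14 microglia and macrophage genes, 10 were called higher and none lower, with summed levels of 94.7 to 110.6 CPM in R6/1 retinas and 64.1 to 65.8 CPM in wt retinas. Of 9 genes of T, B and plasma cells, Ptprc, the general leukocyte antigen, was called higher and Jchain, the joining chain of secreted antibodies, lower by edgeR. DESeq2 and limma-voom called 1 gene of this list lower and 0 higher, so the call of Ptprc was lost in both, and the summed levels of the list overlapped (73.5 to 87.8 CPM in R6/1 retinas, 69.1 to 85.1 CPM in wt retinas). The part of these cells in the result for Prdm1 was not tested.

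Rorb, a nuclear receptor that acts in rod precursors and is also expressed by inner retinal neurons, had 303, 384 and 344 CPM in R6/1 retinas, against 433, 431 and 457 CPM in wt retinas. The groups did not overlap, and the log2 fold change was -0.33 (SE 0.08, adjusted p = 0.00484). It had the highest adjusted p of the 6 calls and was lost with scaling by library totals (log2 fold change -0.21, adjusted p = 0.056) and in the shared fit of 12 libraries (-0.36, SE 0.16, adjusted p = 0.154).

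The cone factors and Neurod1 did not pass the test. Rxrg had 4.47, 3.24 and 4.32 CPM in R6/1 retinas, against 4.89, 6.00 and 5.16 CPM in wt retinas. Although these pools did not overlap, the log2 fold change of -0.38 had an SE of 0.18 and an adjusted p of 0.139. Thrb had 113, 94.9 and 119.7 CPM in R6/1 retinas, against 128, 109 and 136 CPM in wt retinas, and its ranges overlapped (log2 fold change -0.16, SE 0.10, adjusted p = 0.299). The counts sum all transcripts of a gene, so the cone isoform of the thyroid hormone receptor was not measured apart from the others. Neurod1, a basic helix-loop-helix factor, had 511, 532 and 540.1 CPM in R6/1 retinas, against 519, 565 and 605 CPM in wt retinas. Its groups overlapped and its log2 fold change of -0.06 (SE 0.07, adjusted p = 0.548) changed sign to 0.05 with scaling by library totals, which shifted the median of all genes to 0.13. Exons of Neurod1 overlap those of Cerkl on the same strand over 201 bases, so reads there may be assigned either way. Those of Otx2 overlap Gm49154 over 168 bases and those of Nr2e3 overlap Gm15507 over 61 bases. Of these overlapping genes, only Cerkl is a row of the count table. The paper's supplement lists Cerkl as higher in R6/1 retina, and its part in the result for Neurod1 was not tested.

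**Figure D2:**
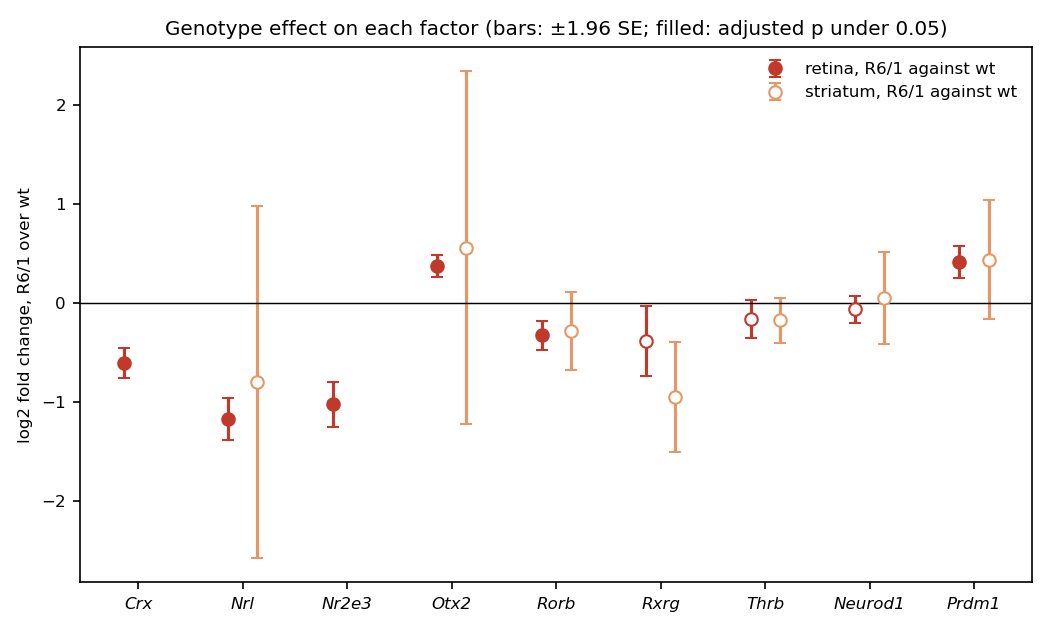
Log2 fold change of R6/1 over wt for each factor in retina and in striatum, with normal 95% intervals from the SE of the edgeR fit. Filled points passed an adjusted p of 0.05. In retina Nrl (-1.17), Nr2e3 (-1.02), Crx (-0.60) and Rorb (-0.33) lie below 0 and Otx2 (0.38) and Prdm1 (0.42) above it, while no striatal point passed.

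The balance between the factors was compared within each retina library as ratios of counts, which do not depend on scaling between libraries. The ratio of Otx2 to Crx was 0.437, 0.442 and 0.377 in R6/1 retinas, against 0.221, 0.217 and 0.197 in wt retinas, a log2 difference of 0.98. All R6/1 pools exceeded all wt pools. The ratio of Nrl to Crx was 0.757, 0.577 and 0.606 in R6/1 retinas, against 0.995, 1.07 and 0.821 in wt retinas (log2 difference -0.57), so Nrl was lower relative to Crx in every R6/1 pool. By contrast, the ratio of Nr2e3 to Nrl overlapped between the genotypes, with 0.496, 0.582 and 0.566 in R6/1 retinas, against 0.424, 0.529 and 0.518 in wt retinas (log2 difference 0.16, 2-sided exact permutation p = 0.3, adjusted p = 0.3). Among the 9 ratios compared, the other 8, 2 of them given above, did not overlap and reached an exact permutation p of 0.1 (adjusted p = 0.112), the smallest that 3 pools against 3 allow. They ranged in log2 difference from -0.57 for Nrl to Crx to 1.55 for Otx2 to Nrl. Most of these ratios share Crx as denominator, which was itself lower in R6/1 retina, so they are not separate results. All 9 are built from the counts behind the changes given above, so they restate those changes and add no evidence of their own. The ratios to Crx of Neurod1 (log2 difference 0.54) and Thrb (0.45), whose own levels overlapped between genotypes, were among those that did not overlap. The share of non-overlapping ratios among other genes was not computed, so the count of 8 is not read as a result about these factors.

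Other regulators of photoreceptor genes moved in both directions. Of 19 tested in the retina, 9 were called lower and 3 higher by edgeR (9 and 1 by DESeq2), and the median of their log2 fold changes was -0.14. The decreases were largest for Samd11, a chromatin partner in rods (157 CPM in R6/1 retina and 413 CPM in wt retina, mean of 3, log2 fold change -1.36, SE 0.08), and for Esrrb, an orphan nuclear receptor of rods (132 and 299 CPM, -1.15, SE 0.07). Mef2c (-1.10, SE 0.07) and Mef2d (-0.35, SE 0.06), MADS-box factors of neurons and photoreceptors, were also called lower, as were Ankrd33, which represses CRX activity (-0.68), Casz1, a zinc finger factor of retinal progenitors (-0.67), Pias3, a SUMO ligase that modifies NR2E3 (-0.55), Onecut1, a horizontal cell factor (-0.60), and Tbx2, a T-box factor of cones (-0.37). Samd7, a Polycomb partner and relative of Samd11, was called higher (266 CPM in R6/1 retina and 179.9 CPM in wt retina, log2 fold change 0.59, SE 0.06), and so were Nr2f2, an orphan receptor that patterns the cone opsins (0.31), and Zfp513 (0.28). Samd7 and Samd11 thus changed in opposite directions.

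Relatives of the 9 factors were mostly not called. Of 20 paralogs tested, Prdm13 (-0.81, SE 0.12), Maf (-0.58, SE 0.13), Neurod2 (-0.45) and Neurod4 (-0.39, SE 0.06) were called lower, none was called higher, and the median was -0.07. Rora (0.05), Thra (0.03) and Mafg (0.02), 3 of the most abundant paralogs, were not called. Of 13 progenitor and neurogenic factors, 3 were called lower and none higher. Among them were Pax6 (-0.61, SE 0.06) and Six3 (-0.41, SE 0.07), eye-field genes that remain expressed in inner neurons of the adult retina. These lists are read against the 12.7% and 9.58% of all genes called lower and higher.

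All 26 rod genes tested, many of them known targets of CRX and NRL, were called lower. Their median was -0.88, and their summed level was 31965 to 43059 CPM in R6/1 retinas and 89275 to 99671 CPM in wt retinas. Gnat1, the rod transducin alpha subunit (-1.44, SE 0.19), Sag, rod arrestin (-1.35, SE 0.23), and Gnb1, the rod transducin beta subunit (-1.17, SE 0.13), lay in the same range as Nrl. They are among the most abundant of the list, whose changes ran from -1.74 to -0.49 and so also spanned that of Crx (-0.60).

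Among 13 cone genes, 11 were called lower and 1 higher, with a median of -1.55, beside changes of -0.38 for Rxrg and -0.16 for Thrb that did not pass. Opn1sw, the short-wave cone opsin, had 0.873, 0.823 and 1.16 CPM in R6/1 retinas, against 391, 375 and 415 CPM in wt retinas (log2 fold change -8.65, SE 0.11, adjusted p = 9.67e-19). Gnat2, cone transducin, fell less far (-2.06, SE 0.08), as did Guca1a, a guanylate cyclase activator of rods and cones (-0.94, SE 0.10). The cone gene that was called higher was Gnb3, a transducin subunit that bipolar cells also express (0.73, SE 0.06). The opsin controlled by thyroid hormone, Opn1mw, which was singled out after its values were seen, had 0.0546, 0.154 and 0.00 CPM in R6/1 retinas, against 106, 97.2 and 95.8 CPM in wt retinas.

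**Figure D3:**
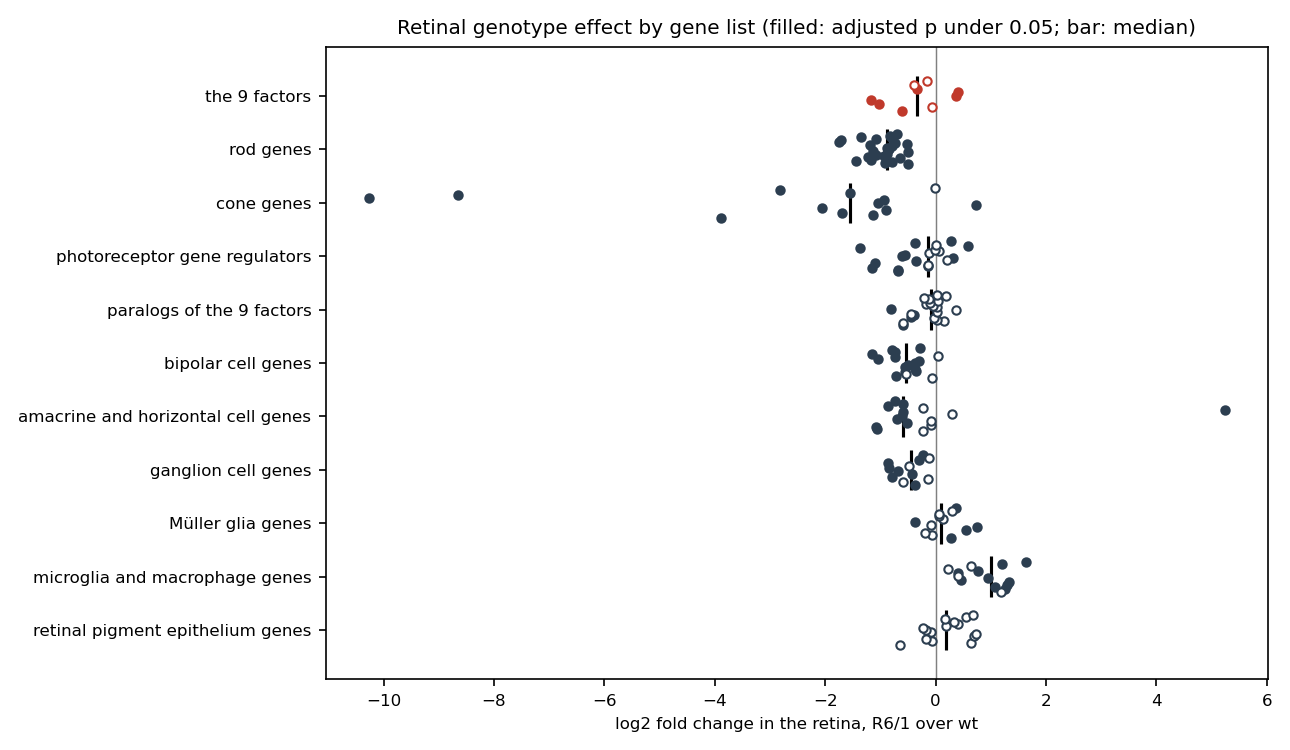
Log2 fold change of R6/1 over wt retina for the 9 factors and for the genes of the compared lists, 1 point per gene tested, with the median of each list. Filled points passed an adjusted p of 0.05. All 26 rod genes lie below 0 (median -0.88), cone genes have the lowest median (-1.55), the 9 factors spread on both sides of 0 (median -0.33), and the point near 5 is Ptf1a, an amacrine factor listed at 0 in wt retinas.

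Among genes of inner retinal neurons, 9 of 15 amacrine and horizontal cell genes and 8 of 12 ganglion cell genes were called lower in R6/1 retina, with medians of -0.59 and -0.45. In the amacrine list 1 gene was called higher, Ptf1a, with at most 0.388 CPM in R6/1 retinas and 0 in wt retinas, and in the ganglion cell list none was. The Ptf1a call was edgeR's alone, as DESeq2 and limma-voom called 0 genes of the amacrine list higher. Of 12 Müller glia genes, 4 were called higher and 1 lower, with summed levels of 3985 to 4381 CPM in R6/1 retinas and 4364 to 4936 CPM in wt retinas. Several of the 9 factors are known in these cells as well, and the part of their share in the results above was not tested.

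In the striatum no factor was called. Crx and Nr2e3 were listed at 0 in all 6 striatal libraries, and edgeR called 0 of the other 7 in either direction, where 1.32% of 16728 genes were called lower and 0.132% higher (220 and 22 genes, 209 and 220 with scaling by library totals, 1190 and 473 with the replicate block). At an unadjusted p below 0.05 there was 1, Rxrg, and DESeq2 and limma-voom also called 0. The pools of 2 factors, Rxrg and Prdm1, did not overlap, beside 25.6% of all genes tested.

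Rxrg had 46.2, 23.3 and 43.5 CPM in R6/1 striata, against 87.4, 69.6 and 59.6 CPM in wt striata. All R6/1 pools lay below all wt pools and replicate 2 was the lowest, but the log2 fold change of -0.95 (SE 0.28) had an adjusted p of 0.154. The call depended on the fit. It was made in the shared fit of 12 libraries (adjusted p = 0.0348) and in DESeq2 with the replicate number as a block (adjusted p = 0.0253), but not in edgeR with that block (0.19) or in DESeq2 without it (0.0738). The 16 medium spiny neuron genes tested had a median of -1.21, and edgeR called 2 of them lower, Penk and Scn4b, where DESeq2 called 13 and limma-voom 7. Their summed level was 3152, 1673 and 3111 CPM in R6/1 striata, against 7604, 5365 and 6148 CPM in wt striata, so replicate 2 was again the lowest in R6/1, and their part in the result for Rxrg was not tested.

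Otx2 was low in striatum, with 0.868, 5.08 and 1.04 CPM in R6/1 striata, against 0.538, 3.31 and 0.921 CPM in wt striata. In both genotypes replicate 2 was the high library, and Otx2 was higher in R6/1 for each of the 3 replicate numbers. A pairing of the libraries numbered 1 and 3 was not shown, which limits this comparison and the block used next. The log2 fold change of 0.56 had an SE of 0.91 (adjusted p = 0.787), and with the replicate number as a block it was 0.51 with an SE of 0.26 (adjusted p = 0.243). Without the block it was -0.75 without R6/1 replicate 2, 1.72 without wt replicate 2 and 0.40 without both. Slc17a6, a glutamate transporter of thalamic neurons, followed the same libraries, with 10.7, 96.3 and 13.9 CPM in R6/1 striata, against 16.6, 55.3 and 22.7 CPM in wt striata. The 8 thalamic genes summed to 76.7 to 280.1 CPM in R6/1 striata and 77.1 to 189.8 CPM in wt striata, with replicate 2 highest in each. Ttr, the transthyretin of the choroid plexus, was instead highest in R6/1 replicate 3 (6.88, 13.2 and 130.1 CPM in R6/1 striata, against 2.99, 10.2 and 2.15 CPM in wt striata). The part of either list in the level of Otx2 was not tested.

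**Figure D4:**
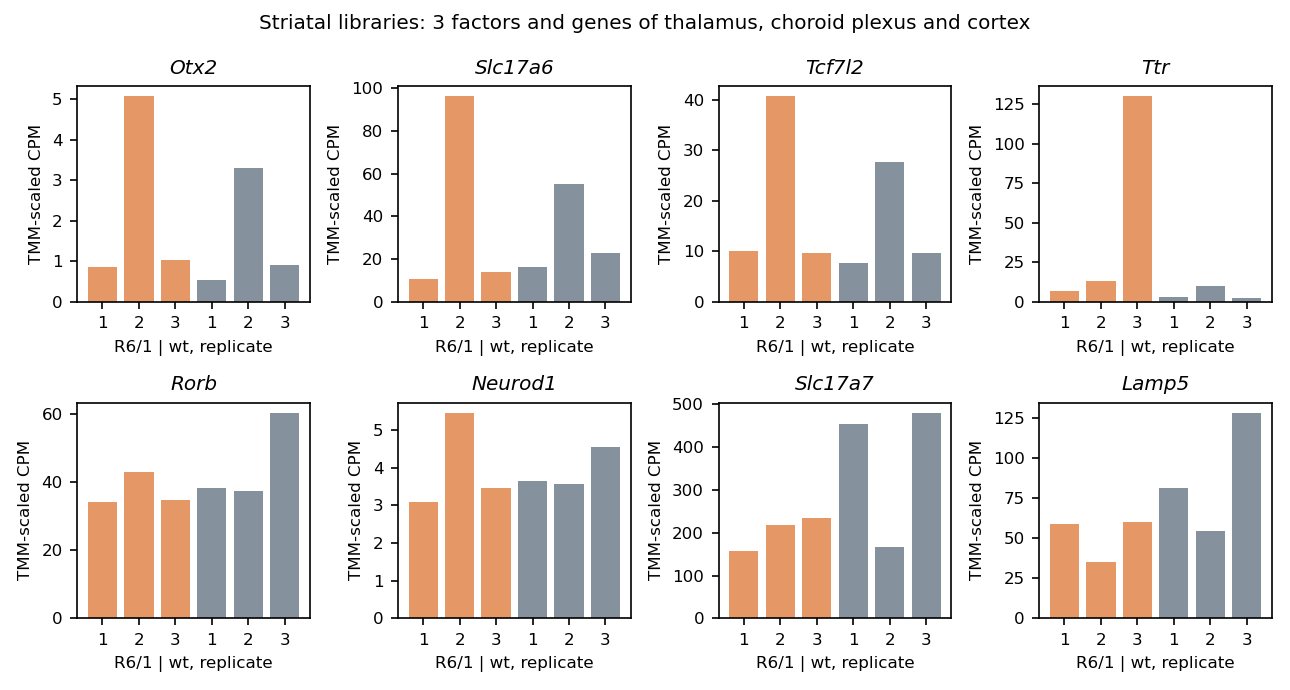
Levels in TMM-scaled CPM (linear axes from 0) in each of the 6 striatal libraries, replicates 1 to 3 of R6/1 left of those of wt, of the factors Otx2, Rorb and Neurod1, the thalamic genes Slc17a6 and Tcf7l2, the choroid plexus gene Ttr and the cortical genes Slc17a7 and Lamp5. Each bar is 1 library. Otx2 and Slc17a6 peak in replicate 2 of both genotypes (5.08 and 3.31 CPM for Otx2), Ttr peaks in R6/1 replicate 3, and Rorb and Lamp5 peak in wt replicate 3.

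None of the remaining striatal factors passed the test. Rorb, which also marks neurons of the cortex, had 34.2, 43.0 and 34.7 CPM in R6/1 striata, against 38.3, 37.5 and 60.5 CPM in wt striata (log2 fold change -0.28, SE 0.20, adjusted p = 0.488). The groups overlapped, and without wt replicate 3 the change was -0.02. The 12 cortical genes summed to 644 to 829 CPM in R6/1 striata and 624 to 1517 CPM in wt striata, with the highest value in the same wt replicate 3, and their part in the result for Rorb was not tested. Thrb averaged 55.9 ± 8.63 CPM in R6/1 striata and 63.0 ± 4.83 CPM in wt striata (SD, n = 3 each; log2 fold change -0.17, SE 0.12, adjusted p = 0.444 by edgeR). Neurod1 was near 4 CPM in both (0.05, SE 0.24, adjusted p = 0.939). Prdm1 had 1.12, 1.38 and 1.04 CPM in R6/1 striata, against 0.717, 0.916 and 0.982 CPM in wt striata, which did not overlap but did not pass (0.44, SE 0.31, adjusted p = 0.466). Nrl was at the limit of detection, with 5 counts in the R6/1 striata together and 8 in the wt striata.

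Among the striatal lists, edgeR called 0 of 17 regulators of photoreceptor genes and 0 of 23 rod genes, with 2 of each at an unadjusted p below 0.05. Limma-voom also called 0 in both lists, and DESeq2 called 1 regulator higher and 0 rod genes. Of 19 paralogs, Mafa, a relative of Nrl, was called lower, with 0.725 CPM in R6/1 striata and 3.49 CPM in wt striata (log2 fold change -2.26, SE 0.33, adjusted p = 0.0193).

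Whether the genotype effect differed between the tissues was tested as an interaction, retina minus striatum, for the 7 factors counted in both. By edgeR 0 passed in either direction, none had an unadjusted p below 0.05, and DESeq2 and limma-voom called 0, whereas 4.86% of 15731 genes were called lower and 3.38% higher (765 and 531 genes, 555 and 637 with scaling by library totals). The difference was 0.53 for Rxrg (SE 0.42, adjusted p = 0.492), -0.26 for Otx2 (SE 0.82, adjusted p = 0.884) and -0.08 for Rorb (SE 0.24, adjusted p = 0.874). For Nrl it was -0.44 with an SE of 1.05, with 5 and 8 striatal counts behind it. Prdm1 (-0.06, SE 0.20), Neurod1 (-0.17, SE 0.22) and Thrb (-0.01, SE 0.17) had narrower errors. Leaving out 1 library moved the difference of Otx2 between -1.46 and 1.14, and it also turned the sign for Rorb (-0.34 to 0.04), Neurod1 (-0.31 to 0.15), Prdm1 (-0.15 to 0.08) and Thrb (-0.13 to 0.11), with no call in any of these fits. A difference between the tissues was therefore not shown for any of these factors, and for Crx and Nr2e3 it could not be tested.

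Between the tissues all 9 factors were called in both genotypes, with limits for Crx, Nr2e3 and Nrl given below. Retinas and striata came from the same mice, whereas these fits and the interaction took their libraries as independent. With the replicate number as a block all 9 calls were also made in each genotype. The sources do not state that a number marks the same mice in both tissues, so this block may not account for the shared mice. In R6/1 mice 8 were called higher and 1, Rxrg, lower in retina than in striatum, where 36.3% and 36.9% of 16885 genes were called higher and lower. In wt mice the same counts were found, 8 higher and 1 lower, with Rxrg again the lower one, beside 37.8% and 38.5% of 16864 genes. The called set includes Crx and Nr2e3, which were listed at 0 in striatum, so no fold is given. Both passed the count filter through retina alone, so they could only be called higher there. Nrl, with 5 striatal counts in R6/1 and 8 in wt, also passed it only through retina. The calls of these factors therefore add no evidence of their own.

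The log2 difference of Nrl was 12.46 (SE 0.28) in R6/1 mice and 12.87 (SE 0.16) in wt mice. The R6/1 value rests on 5 striatal counts and was 13.83 without R6/1 striatum replicate 2. Neurod1 (7.01 in R6/1 and 7.17 in wt) and Otx2 (7.05, SE 0.54, in R6/1 and 7.30, SE 0.41, in wt) came next, and without both striatal libraries numbered 2 the difference of Otx2 was 8.45 in R6/1 and 8.49 in wt. Prdm1 (4.59 in R6/1 and 4.64 in wt), Rorb (3.21 and 3.28) and Thrb (0.98 and 0.98) had smaller differences. Rxrg, with a log2 difference of -3.22 (SE 0.32) in R6/1 and -3.76 (SE 0.16) in wt, was the only one of the 9 lower in retina. In striatum, per kilobase of merged exon, Rxrg led with 16.4 CPM per kb in R6/1 and 31.4 in wt, ahead of Thrb (7.55 and 8.50), Rorb (3.37 and 4.10) and Neurod1 (1.47 and 1.44).

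Genes whose pattern over the 12 libraries lay closest to each factor were found by the Euclidean distance of centred log2 CPM among 13947 genes. These candidates were tested in both genotype comparisons and had a mean of at least 1 CPM over the 12 libraries. Genes listed at 0 in striatum, such as the rod genes Cnga1 and Tulp1, were thus not candidates. Crx and Nr2e3 are themselves at 0 there, so genes closer to them may have been left out. For Crx these were Pde6b (distance 1.16) and Prph2 (1.46), a rod phosphodiesterase subunit and a disc rim protein. Those for Nrl were Pde6g (0.740) and Slc24a1 (1.26), and Slc24a1 (0.956) was also among those for Nr2e3. Pde6g encodes the inhibitory subunit of rod phosphodiesterase and Slc24a1 the rod cation exchanger. Otx2 lay closest to Cacna2d4 (1.98) and Gpr179 (1.99), synaptic and bipolar cell genes, and Neurod1 to Cacna2d4 (0.925) and Krt18 (1.18). Rxrg had Syndig1l (0.559) and Hpca (0.708) as its neighbours, both abundant in striatum. Thrb lay next to Cntn4 (0.356) and Pknox1 (0.375), Rorb to Rbm20 (0.555) and Proser2 (0.637), and Prdm1 to Bub1b (0.785) and Sbspon (0.871). The distances describe likeness over libraries that share tissue and genotype, and carry no test. They span both tissues, so a near gene need not share the change in R6/1 retina. There Cacna2d4 (log2 fold change -0.08) and Gpr179 (-0.35) were not higher, unlike Otx2 (0.38). Beside Rorb (-0.33), Rbm20 changed by -0.003 and Proser2 by -0.24. Beside Prdm1 (0.42), Bub1b changed by 0.64 and Sbspon by 0.005. The genes named for Crx, Nrl and Nr2e3 had negative changes, as these factors had.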

How the data were processed

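Stranded messenger RNA libraries of retina and striatum, 3 pools of 3 to 4 mice per group, were sequenced as paired ends by the authors. Per the submitters' processing notes, CASAVA, Trimmomatic and Salmon were used with GRCm38 (mm10); versions are not given in the sources used here. The deposited values are estimated counts per gene, made by the authors from transcript estimates and not normalized. They were whole numbers as read and were not rounded here. Of the identifiers, 17527 were paired with a symbol through GENCODE M21 and 52 were not.

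Genes with at least 10 counts over the libraries compared were tested with edgeR 4.0.16 (TMM factors, robust quasi-likelihood F-test) in R 4.3.3, each genotype comparison within its own 6 libraries, each tissue comparison within 6 libraries of 1 genotype, and the interaction on all 12. Genes at an adjusted p under 0.05 were called. Ratios of counts were compared by 2-sided exact permutation tests. The fits were repeated with other scalings and filters, with DESeq2 1.42.0 and with voom (limma 3.58.1). They were also repeated with a replicate block, without each library in turn, and with all 12 libraries in 1 fit. The scripts' fits were tested on simulated data. Retinal and striatal RNA of the same mice was pooled, 3 to 4 samples per pool; the sources do not state whether a replicate number marks the same mice in both tissues. The p-values measure the spread between pools.

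No column was left unmapped. Same-numbered R6/1 and wt striatum libraries deviated together (correlations 0.257, 0.325 and 0.253 over 10514 genes). All exceeded the minimum set, 0.1, so the numbers were taken to pair them. For numbers 1 and 3, however, the highest correlation with another number was 0.267, above their own. Only number 2, at most -0.0546 with another number, stood apart, so a pairing of numbers 1 and 3 was not shown. Same-numbered R6/1 and wt retina libraries did not all reach the minimum of 0.1 (0.14, -0.126 and 0.0173). In R6/1 mice, same-numbered retina and striatum libraries had correlations of 0.0872, 0.0932 and 0.108. These exceeded the highest between different numbers, 0.0265, but did not all reach the minimum. In wt mice the same-number values were -0.0273, 0.0227 and -0.00152. The 9 factors and the 18 gene lists were chosen with earlier results of these data known. Genes named from a list are its 4 most abundant, and every called gene of the lists of regulators, paralogs and progenitor factors. The 2 most similar genes among the candidates tested in both tissues are named for each factor. Promoter coordinates are RefSeq GRCm38.p6. Some genes that this rule would name are not reported here.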

Additional observations from a re-analysis of the deposited data

How the results depend on the processing

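In retina, Crx (log2 fold change -0.68 to -0.49), Nrl (-1.27 to -1.05), Nr2e3 (-1.12 to -0.90) and Prdm1 (0.38 to 0.53) were called under all 18 alternatives, with a highest adjusted p of 0.0389 for Prdm1. In 1 fit of all 12 libraries the number of factors called higher was 1, since Otx2 was lost. Leaving out 1 library kept 4 factors lower and 2 higher each time. In striatum, 1 factor, Rxrg, was called lower in 1 fit of all 12 libraries and in DESeq2 with a replicate block, an alternative chosen after seeing the data. Its log2 fold change without 1 library was -1.12 to -0.68, and no factor was called. The replicate block in edgeR, which takes the striatal numbers as pairs, changed no call of a factor (Rxrg adjusted p = 0.19, Rorb -0.25, Otx2 0.51). It raised the calls over all genes in striatum to 1190 lower and 473 higher, against 220 and 22. Without 1 library these were 1 to 1201 lower and 0 to 715 higher, and without both striatal libraries numbered 2, also chosen after seeing the data, 1658 and 1004. DESeq2 called 805 lower and 177 higher, the fit of 12 libraries 887 and 413, and DESeq2 with the replicate block 875 and 160. At an adjusted p under 0.01 there were 7 lower and 0 higher. Scaling by library totals gave 209 lower and 220 higher in striatum, and 1445 lower and 3886 higher in retina, against 2103 and 1588 there, with medians of all genes of 0.12 and 0.13. The fit of 12 libraries gave 1753 and 992 in retina, DESeq2 with a replicate block 1207 and 685, an adjusted p under 0.01 gave 1364 and 745, and leaving out wt retina replicate 1 gave 1557 and 960. For the interaction (765 and 531) the replicate block gave 1045 and 835, an adjusted p under 0.01 gave 284 and 158, library totals 555 and 637, leaving out 1 library 445 to 1097 and 322 to 902, and leaving out both striatal libraries numbered 2 gave 1118 and 1011. The cause of these differences was not tested. All 9 tissue calls held under 19 alternatives in each genotype, among them those of Crx, Nr2e3 and Nrl, which passed the count filter through retina alone. With 3 pools per group and no block, Rxrg and Otx2 in striatum had SEs of 0.28 and 0.91, and with the replicate block 0.28 and 0.26.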
